A study of Mus musculus with 79 samples.

Results

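A set of 10 genes that encode transcription factors of the developing and adult hypothalamus were followed in mice with a mutated Dnmt3a. The genes were Otp, Sim1, Nkx2-1, Nkx2-2, Six3, Six6, Rax, Hmx2, Hmx3 and Bsx, taken by name from the RNA-seq table, where all 10 were found among 25965 genes. The groups compared were Dnmt3a +/+ and Dnmt3a Δ/D329A mice aged about 14 weeks, on a C57BL/6Babr background. The D329A allele, inherited from the father, replaces aspartic acid by alanine in the PWWP domain of DNMT3A, the DNA methyltransferase that sets new methylation in postnatal neurons. The Δ allele was deleted in the maternal germ line by a Cre recombinase under the oocyte-specific Zp3 promoter, so it is constitutive in the offspring. RNA and histone data cover these 2 genotypes, so effects of Δ and of D329A cannot be told apart. RNA-seq came from 5 +/+ and 4 Δ/D329A hypothalami. Sex is not in the sample labels, but the study's figure legends describe the RNA-seq as female and the ChIP-seq as male, so RNA and marks are not from animals of the same sex. ChIP-seq came from 3 animals of each genotype for H3K4me3, H3K27me3, H3K36me3 and input, with 2.5% of a hypothalamus in each precipitation. Each replicate was an individual animal and the whole hypothalamus was used, so every value is an average over neurons, glia, tanycytes and vessels.

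The 10 factors divide the hypothalamus into territories and cell types during development. Sim1 and Otp are needed for the neuroendocrine neurons of the paraventricular and supraoptic nuclei, Nkx2-1 and Nkx2-2 pattern the ventral forebrain and neural tube, and Six3 and Six6 act in the anterior forebrain and eye field. Rax marks tanycytes, the glia lining the ventral wall of the ventricle, while Hmx2, Hmx3 and Bsx act in neurons of the arcuate nucleus and its surroundings. Many genes of this kind lie in broad domains of H3K27me3, the mark set by Polycomb repressive complex PRC2, and carry H3K4me3 at their promoters. Regions with both marks are called bivalent, although in a whole tissue the marks may sit in different cells. H3K36me3 covers the bodies of transcribed genes and is bound by PWWP domains. In the table's GRCm38 coordinates Sim1 spans chr10:50895651-50989152, Otp chr13:94875627-94883681, Nkx2-1 chr12:56531935-56536908, Nkx2-2 chr2:147177546-147194243, Six3 chr17:85613608-85631813 and Six6 chr12:72939724-72946094. Hmx2 spans chr7:131554062-131556582, Hmx3 chr7:131542867-131544925 and Bsx chr9:40874127-40877972.

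The DNA just upstream of 4 of these genes is shown because their values by animal are described at length further on. RefSeq on GRCm38.p6 lists 9 of the 10 genes among its promoters, but not Rax. The lines give the 250 bases before the transcription start on the strand of the gene, with CG dinucleotides, the sites of CpG methylation, in capitals. They are Sim1 at chr10:50895401-50895650 (plus strand), Otp at chr13:94875386-94875635 (plus strand), Nkx2-1 at chr12:56536909-56537158 (minus strand) and Six3 at chr17:85620584-85620833 (plus strand).
Sim1: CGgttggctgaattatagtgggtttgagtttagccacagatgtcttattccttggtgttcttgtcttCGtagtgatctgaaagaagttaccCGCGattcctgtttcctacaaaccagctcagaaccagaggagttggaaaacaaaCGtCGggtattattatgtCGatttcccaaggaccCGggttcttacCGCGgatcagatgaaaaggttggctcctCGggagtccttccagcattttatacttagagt
Otp: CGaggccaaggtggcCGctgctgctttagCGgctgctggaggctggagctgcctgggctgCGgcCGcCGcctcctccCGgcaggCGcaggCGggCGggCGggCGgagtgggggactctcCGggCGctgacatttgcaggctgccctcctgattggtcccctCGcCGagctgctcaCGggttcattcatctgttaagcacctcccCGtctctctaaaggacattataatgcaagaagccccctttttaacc
Nkx2-1: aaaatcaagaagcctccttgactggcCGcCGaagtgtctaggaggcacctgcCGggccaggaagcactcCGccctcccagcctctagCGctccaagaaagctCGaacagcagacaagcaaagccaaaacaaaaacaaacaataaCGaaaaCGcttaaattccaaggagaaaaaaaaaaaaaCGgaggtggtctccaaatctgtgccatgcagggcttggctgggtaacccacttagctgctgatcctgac
Six3: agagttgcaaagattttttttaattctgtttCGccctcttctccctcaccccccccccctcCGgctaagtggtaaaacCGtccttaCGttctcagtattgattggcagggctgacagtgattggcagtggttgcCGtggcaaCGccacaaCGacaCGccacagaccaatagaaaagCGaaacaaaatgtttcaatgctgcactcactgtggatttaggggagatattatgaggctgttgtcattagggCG
The Sim1 window holds 11 CpGs, the Otp window 18, the Nkx2-1 window 9 and the Six3 window 10. As many CpGs or more are found in 35.6%, 21.7%, 40.3% and 37.8% of all 32841 promoter windows of this length, respectively. The windows of the 9 genes, of which Hmx2 has a pair, hold from 1 to 31 CpGs with a median of 12.5, against a median of 6 over all promoters. The richest is that of Hmx3, with 31.

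The RNA-seq libraries held 5404919 to 9625802 reads on genes in +/+ and 3776938 to 6408171 in Δ/D329A. ChIP libraries held from 12676361 reads (H3K4me3, Δ/D329A replicate 2) to 30207875 reads (input, Δ/D329A replicate 1). Dnmt3a RNA was 3.28 to 4.31 RPKM (reads scaled to gene length and library size) in +/+ and 2.84 to 3.30 in Δ/D329A (log2 difference −0.28 ± 0.13 SE, limma adjusted p = 0.355); a value over the whole gene does not test the deletion or the point mutation. Genes for hypothalamic neuropeptides, 8 in number, summed to 348 to 715 RPKM in +/+ and 415 to 618 in Δ/D329A, so the markers of the labelled tissue were present in every library.

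In +/+ hypothalamus all 10 promoters carried H3K27me3. Promoter signal is the mean over 2000 bp tiles centred from 1500 bp before to 500 bp after the start, in reads scaled to library size (RPM), and was tested against input in +/+ animals with limma on log2(RPM + 0.1). H3K27me3 was above input at 10 of 10 genes (adjusted p under 0.05), against 20.2% of 25952 promoters. Mean signals lay between 3.94 RPM at Nkx2-2 and 6.98 RPM at Nkx2-1, in the top few percent of all genes (percentiles 96.8 to 99.6), where the median promoter had 0.483 RPM. The plot of H3K4me3 against H3K27me3 over all promoters places the 10 genes towards its right edge.

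**Figure D1:**
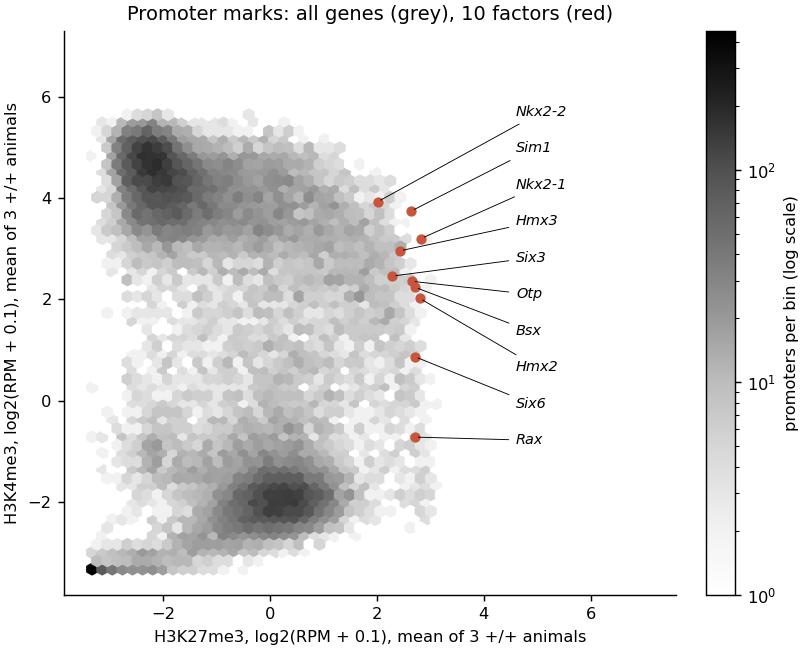
H3K4me3 (vertical axis) against H3K27me3 (horizontal axis) at promoters, both as log2(RPM + 0.1) averaged over 3 +/+ animals; grey hexagons count all promoters on a log scale and red points are the 10 factors. The 10 points share high H3K27me3 and spread in H3K4me3 from Nkx2-2 and Sim1 down to Six6 and Rax.

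H3K4me3 was above input at 8 of the 10 promoters, against 57.5% of all. The exceptions were Six6, needed in the eye and suprachiasmatic nucleus (1.73 ± 1.24 RPM, SD, n = 3, against 0.678 ± 0.037 in input, adjusted p = 0.258), and Rax, where the promoter lay below input (0.508 ± 0.117 against 0.912 ± 0.116 RPM, adjusted p = 0.0246). Both marks were therefore above input at 8 of 10 genes, against 10% of all promoters. Rax did carry H3K4me3 inside the gene, with its highest tile centred 4088 bp from the start (7.78 ± 1.89 RPM in +/+). Counts were the same around RefSeq starts, where 58.2% of all promoters passed for H3K4me3, 20.3% for H3K27me3 and 3.38% for H3K36me3. The strongest promoters were those of Nkx2-2 (15.1 ± 2.0 RPM) and Sim1 (13.3 ± 0.8 RPM), and these were also the steadiest between animals. With edgeR on reads of the nearest tile 3 of the 10 were called above input, against 12205 of 24861 promoters tested. In that fit the difference was negative at Otp, Hmx2, Hmx3 and Bsx. Without +/+ replicate 1 or without +/+ replicate 3 the number was 4, against 14710 and 14711 of 25952 promoters.

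H3K36me3 was above input at 0 of the 10 promoters, against 3.7% of all. All 10 were below input (limma adjusted p under 0.05 at each), as were 19958 of all 25952 promoters. With edgeR, whose read filter kept Rax alone, 0 members were called above input, against 1851 of 9571 promoters tested. Over gene bodies, from 500 bp after the start to the gene end, H3K36me3 was low as well, at percentiles 3.25 to 45.6. Sim1, the longest of the genes, had the highest at 0.709 ± 0.067 RPM.

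H3K27me3 reached far beyond the genes. Counting neighbouring tiles at or above 2 RPM, which 2.66% to 3.65% of tiles reach in H3K27me3 libraries, the domain around Six6 spanned 65.3 ± 10.7 kb (SD, n = 3) in +/+, that of Otp 46.7 ± 0.6 kb and that of Nkx2-1 42 ± 2.6 kb. Hmx2 and Hmx3, which are neighbours on chromosome 7, shared a domain of 33 kb, at chr7:131527001-131560000 in each +/+ animal. The other domains averaged between 25 and 35.7 kb. The plot of mean profiles around the start shows this breadth beside the narrower H3K4me3.

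**Figure D2:**
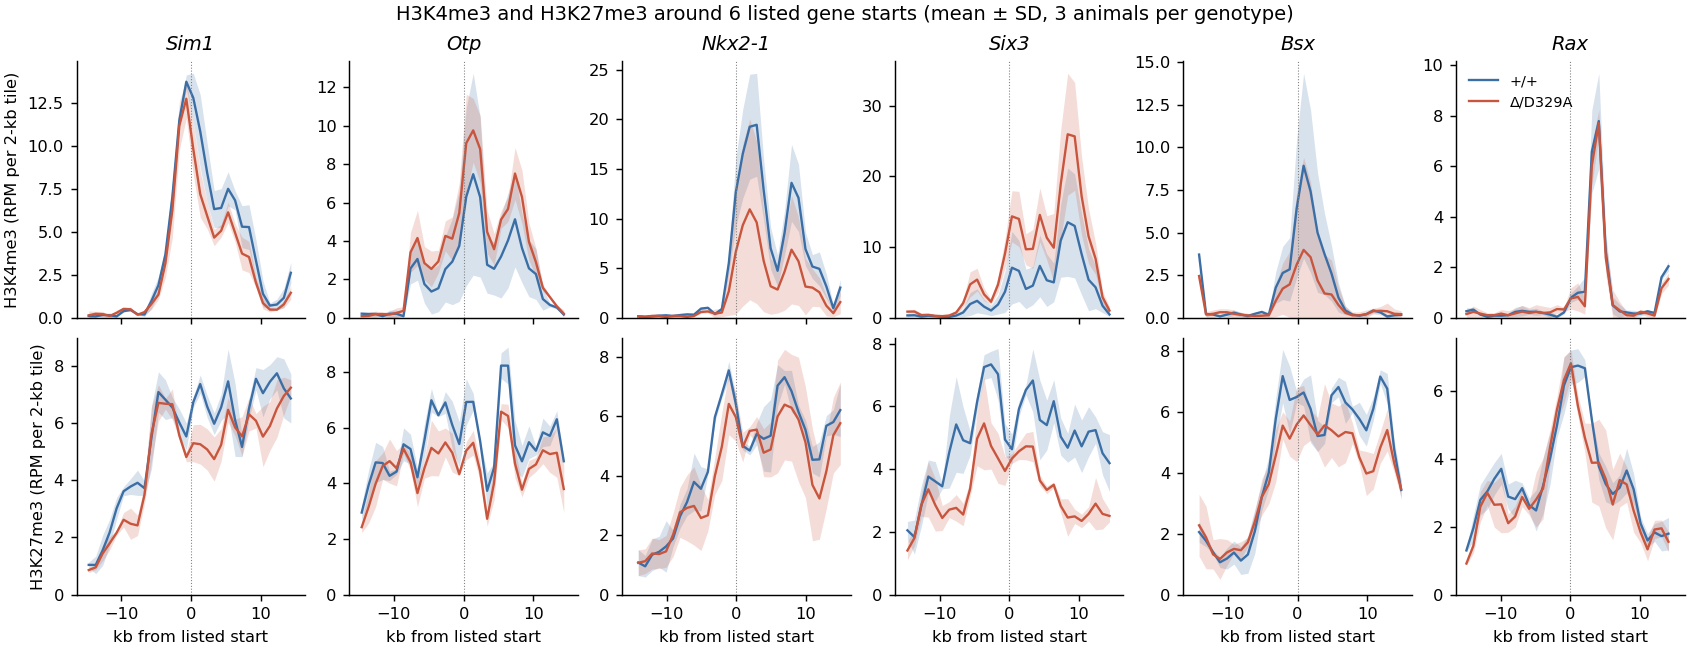
Signal of H3K4me3 (upper row) and H3K27me3 (lower row) in RPM per 2000 bp tile (vertical axes) by distance from the listed start (kb, horizontal axes) at 6 of the genes; lines are means of 3 animals per genotype and shading is the SD. H3K27me3 forms plateaus wider than the H3K4me3 peaks, the Rax H3K4me3 peak lies inside the gene, and at Six3 the Δ/D329A line for H3K27me3 runs below the +/+ line beyond the SD over the body.

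All 10 genes were transcribed at a low level. Their mean in +/+ ranged from 0.452 RPKM (Six3) to 2.14 RPKM (Otp), at percentiles 26.6 to 49.2 of the 17839 genes tested, and the median member was at −0.03 log2 RPKM against 1.09 for all genes. All 10 passed the filter of 0.1 RPKM in at least 4 libraries. The order of mean log2 RPKM in +/+ was Sim1, Otp, Nkx2-1, Bsx, Nkx2-2, Six6, Hmx3, Rax, Hmx2 and Six3. Of the 9 neighbouring pairs in this order, Nkx2-2 above Six6 held in 5 of 5 libraries (gap 0.33 ± 0.15 on the log2 scale, SD), and the other pairs exchanged places in at least 1 library. RPKM divides by the length of the gene model, and the models of Nkx2-2 and Six3 start 7841 and 7226 bp upstream of the nearest RefSeq start, so their levels depend on that model. The reads behind the levels ranged from 71 to 263 for Sim1 down to 1 to 18 for Hmx2 and 4 to 42 for Rax.

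Sim1, whose loss of a single copy causes overeating and obesity in mice, had the clearest difference in RNA between genotypes. Its level was 1.94, 2.26, 2.29, 2.12 and 1.76 RPKM in the 5 +/+ libraries and 1.15, 0.918, 1.25 and 1.41 RPKM in the 4 Δ/D329A libraries. Every Δ/D329A library was thus below every +/+ library, as at 1.23% of all genes tested, while 1.78% lay above. The mean was 2.07 ± 0.22 RPKM (SD, n = 5) in +/+ and 1.18 ± 0.20 RPKM (n = 4) in Δ/D329A, which is −0.82 ± 0.17 SE on the log2 scale (95% interval −1.198 to −0.45), or 56.5% of the +/+ level. An exact permutation test over libraries gave a two-sided p of 0.00794, the smallest that 5 against 4 libraries allow. In the limma fit over all genes the adjusted p was 0.155, so Sim1 did not pass the threshold of 0.01, ranking 63 of 17839 genes by p.

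With counts recovered from the deposited values the call changed. Sim1 had 263, 260, 225, 242 and 218 reads in +/+ and 124, 71, 122 and 115 in Δ/D329A. edgeR's quasi-likelihood test gave a log2 difference of −0.84 (adjusted p = 0.00864) and DESeq2 −0.84 ± 0.17 SE (adjusted p = 0.000105), where edgeR called 0.548% and DESeq2 1.51% of genes under 0.01, with 0.26% and 0.71% lower in Δ/D329A. Over all alternatives the difference lay between −0.91 and −0.71 and the adjusted p between 0.000105 and 0.369. In a whole tissue fewer Sim1-expressing cells and less Sim1 RNA per cell cannot be told apart.

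With limma 0 of the 10 factors passed the threshold of 0.01, as 0.107% of all genes did (19 of 17839, with 0.0224% lower in Δ/D329A), and 1360 of all genes had an unadjusted p under 0.05. Among the 10 that unadjusted level was reached by Sim1 alone. With edgeR and with DESeq2, Sim1 was the 1 member called. In the limma fit 6 members had a negative and 4 a positive difference, with a median of −0.07 against 0.06 for all genes, of which 40.4% had a negative difference.

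Otp, which like Sim1 is needed for neuroendocrine neurons, had a difference of the opposite sign. Otp was at 2.12, 1.89, 2.40, 1.26 and 3.01 RPKM in +/+ and at 2.72, 2.98, 4.65 and 2.28 RPKM in Δ/D329A. The groups overlapped although the mean was higher in Δ/D329A (3.16 ± 1.04 against 2.14 ± 0.65 RPKM, log2 difference 0.57 with a 95% interval of −0.03 to 1.17, exact permutation p = 0.111). The difference between the 2 genes' differences was not tested.

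For the ventral patterning factors the intervals were narrower. Nkx2-1, also a master factor of thyroid and lung, was at 1.81 ± 0.45 RPKM in +/+ and 1.61 ± 0.16 RPKM in Δ/D329A (log2 difference −0.14, 95% interval −0.58 to 0.30). Nkx2-2, which is also expressed in oligodendrocyte precursors, was at 1.12 ± 0.31 and 1.199 ± 0.23 RPKM (0.11, interval −0.39 to 0.61). Changes of 2-fold lie outside both intervals.

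The anterior factors differed in sign, with overlapping groups. Six3 was at 0.452 ± 0.118 RPKM in +/+ and 0.539 ± 0.106 RPKM in Δ/D329A (log2 difference 0.27, interval −0.26 to 0.80). Six6 was at 0.903 ± 0.277 and 0.672 ± 0.245 RPKM (−0.44, interval −1.05 to 0.17). Neither passed a test (exact permutation p = 0.270 and 0.183).

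Rax, Hmx2, Hmx3 and Bsx were counted on few reads and varied widely between animals. Rax ranged from 0.155 to 1.37 RPKM among +/+ libraries and from 0.496 to 0.808 RPKM among Δ/D329A libraries, with a log2 difference of −0.00 (interval −1.22 to 1.22). Bsx, an activator of the appetite peptides AgRP and NPY, stood at 2.73 and 2.05 RPKM in +/+ replicates 1 and 3 and between 0.602 and 1.44 RPKM in the other 7 libraries. Hmx3 was also high in the same +/+ replicates, at 1.31 and 1.08 RPKM, but reached 0.703 to 1.34 RPKM in Δ/D329A. Hmx2 had 1 read in Δ/D329A replicate 4 and 7 to 18 reads in the other libraries. For these genes no difference was detectable at this depth, and the intervals admit changes beyond 2-fold. The plot of RNA levels by library shows the separation at Sim1 and the overlap elsewhere.

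**Figure D3:**
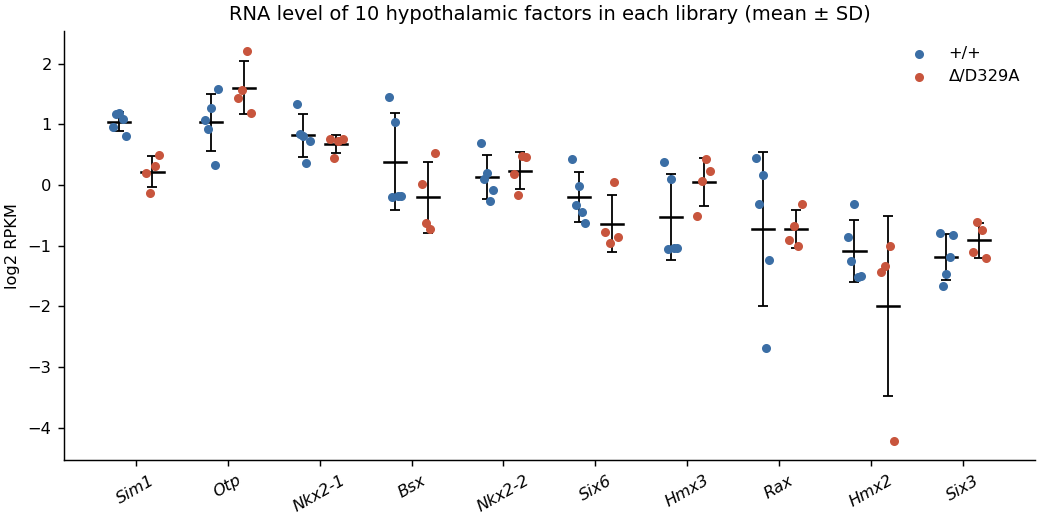
RNA level (log2 RPKM, vertical axis) of the 10 factors, ordered by their +/+ mean, in 5 +/+ and 4 Δ/D329A libraries; each point is a library, and bars give the mean and SD. At Sim1 the Δ/D329A points, −0.12 to 0.49, lie below the +/+ points, 0.81 to 1.19, and at the other genes the groups overlap.

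The spread was not even across +/+ libraries. Replicate 1 was the highest +/+ library at 7 of 10 members, and replicate 4 the lowest at 5. Sim1 was outside this pattern, since its highest +/+ level was in replicate 3 and its lowest in replicate 5.

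H3K27me3 was retained at all 10 genes in Δ/D329A. Its differences were negative over all 10 gene bodies and at 8 of 10 promoters, but none passed with limma. Over gene bodies the Δ/D329A mean was below the +/+ mean at 10 of 10 genes (62.9% of all genes). The median of their log2 differences was −0.26, beside −0.07 over all genes. At 6 genes, Otp, Sim1, Six3, Six6, Rax and Hmx2, every Δ/D329A animal was below every +/+ animal, as at 14.7% of all gene bodies, with 4.95% higher. With limma 0 of 10 passed an adjusted p of 0.05, as 0.00846% of all did. An unadjusted p under 0.05 was reached by 4 of the 10 and by 3072 of all 23654 gene bodies. For 3 against 3 animals the exact permutation p cannot go below 0.1.

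The largest difference in H3K27me3 was over the body of Six3, which keeps Wnt signalling out of the anterior forebrain. Its signal was 5.25, 5.27 and 4.36 RPM in +/+ and 3.14, 2.98 and 2.90 RPM in Δ/D329A. All Δ/D329A animals lay well under the lowest +/+ animal. The log2 difference was −0.70 ± 0.10 SE (95% interval −0.94 to −0.46, limma p = 0.000363, adjusted p = 0.293, exact permutation p = 0.1). It ranged from −0.79 to −0.63 over all alternatives. Around the RefSeq start, whose upstream DNA is printed above, promoter signal was 5.60 ± 0.62 RPM in +/+ and 3.17 ± 0.08 RPM in Δ/D329A. The log2 difference was −0.80 (interval −1.07 to −0.53, limma adjusted p = 0.257). At the start of the gene model, 7226 bp upstream, the promoter difference was −0.20. The body is counted from the start of the model, so it includes most of the stretch upstream of the RefSeq start. The RefSeq promoter window lies inside that body and shares its tiles, so its value is not independent of the body value.

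At Otp the body had 5.84, 6.17 and 6.25 RPM in +/+ and 4.66, 5.05 and 5.03 RPM in Δ/D329A. The groups were apart, by −0.30 ± 0.08 SE on the log2 scale (adjusted p = 0.351). As a ratio to input the difference was −0.82, since input at the gene was 0.612 RPM in +/+ and 0.913 RPM in Δ/D329A.

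Six6 had 7.48, 6.93 and 7.73 RPM over its body in +/+ and 5.14, 6.60 and 6.24 RPM in Δ/D329A. Sim1, whose body extends beyond the domain and averages only 2.22 ± 0.07 RPM, differed by −0.22 (interval −0.46 to 0.03). Its lowest +/+ and highest Δ/D329A animals were both at 2.17 RPM when rounded, so the separation there is narrow. Rax differed by −0.32 (interval −0.62 to −0.02; −0.52 as a ratio to input). Hmx2 differed by −0.37 (interval −0.77 to 0.02), which shrank to −0.07 as a ratio to input.

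At promoters 4 genes had separate groups, all lower in Δ/D329A, namely Otp, Sim1, Six3 and Six6, where 7.31% of all promoters lay lower and 6.3% higher. Sim1 was at 6.45, 5.79 and 6.12 RPM in +/+ and 4.91, 5.46 and 4.77 RPM in Δ/D329A, a log2 difference of −0.27 (interval −0.53 to −0.02, adjusted p = 0.531). Six6 was at 6.26, 6.21 and 6.82 RPM against 4.87, 5.27 and 5.33 RPM (−0.31, interval −0.55 to −0.07). Otp was at 5.57, 5.91 and 7.04 RPM against 4.91, 4.77 and 4.59 RPM (−0.36, interval −0.65 to −0.07). With limma 0 of 10 promoters passed, as 0 of 25952 promoters did (2309 with an unadjusted p under 0.05). With edgeR on the nearest tile Otp passed (−0.50, adjusted p = 0.0318), as 1.74% of promoters did; over the alternatives for Otp the difference ran from −0.81 to −0.27. Nkx2-2 and Rax had differences of 0.08 and 0.03, whose sign changed between alternatives.

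Lower values were frequent at strongly marked promoters. Among the 795 promoters whose mean over all 6 animals reached the 4.04 RPM of the weakest member, the median log2 difference was −0.09 and 68.2% were negative, beside a median of −0.21 and 8 negative of 10 for the members. Δ/D329A replicate 1 was the lowest of its group at 7 of 10 promoters and 8 of 10 bodies. The H3K27me3 and H3K4me3 libraries of +/+ replicate 3 and Δ/D329A replicates 2 and 3 also held more mitochondrial DNA than those of the other 3 animals, which was not so for H3K36me3 and input. Inside each of these sets 1 genotype has a single animal, so the values have no spread and no test. The sign was the same in both sets at 9 of 10 genes for H3K27me3 over bodies and at 8 for promoters, but at 4 for promoter H3K4me3. Over the body of Six3, H3K27me3 differed by −0.55 in the set with more mitochondrial DNA and by −0.73 in the other.

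H3K27me3 domains were found at all 10 genes in every animal. The Six3 domain was 35 ± 4.4 kb in +/+ and 28 ± 5.2 kb in Δ/D329A, with ranges of 32 to 40 and 22 to 31 kb, and the domain shared by Hmx2 and Hmx3 was 33 kb in each +/+ animal and 31 to 32 kb in Δ/D329A. Groups were apart in both cases (exact permutation p = 0.1), but by little, as lengths move in steps of 1000 bp. Domains were measured at the members only, so no share over all genes can be set beside this. The Six6 domain was 48.3 ± 22.3 kb in Δ/D329A against 65.3 ± 10.7 kb, with overlapping groups, and at the other members the groups overlapped too. The Nkx2-1 domain was 17 kb in Δ/D329A replicate 1, against 49 and 50 kb in the other Δ/D329A animals and 39 to 44 kb in +/+.

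**Figure D4:**
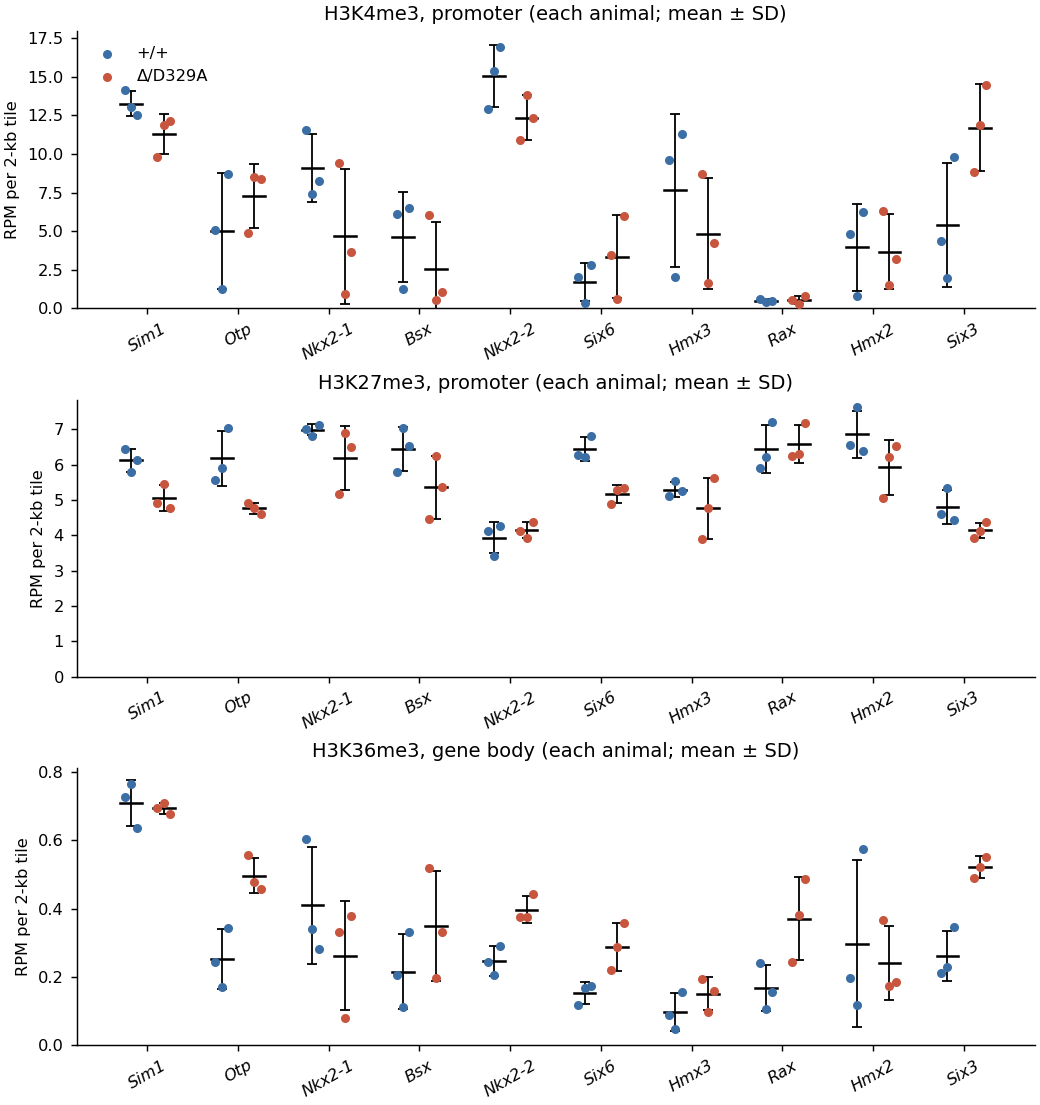
Promoter H3K4me3 (top), promoter H3K27me3 (middle) and gene body H3K36me3 (bottom), in RPM per 2000 bp tile (vertical axes), at the 10 factors in 3 +/+ and 3 Δ/D329A animals; each point is an animal, and bars give the mean and SD. H3K27me3 stays between 3.42 and 7.63 RPM in every animal, H3K4me3 varies widely between animals of a genotype, and H3K36me3 at Otp, Nkx2-2, Six3, Six6 and Rax is higher in every Δ/D329A animal.

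H3K36me3 over the gene bodies was low in both genotypes and higher in Δ/D329A at 7 of 10 members. At 5 of them, Otp, Nkx2-2, Six3, Six6 and Rax, all Δ/D329A animals were above all +/+ animals, against 7.14% of all gene bodies higher and 14.9% lower. The median log2 difference was 0.52, against −0.02 for all gene bodies. With limma 0 of 10 passed, as 0 of all 23654 gene bodies did (3814 with an unadjusted p under 0.05, among them these 5 members). In H3K36me3 libraries, 4.94% to 5.05% of tiles reached 2 RPM in +/+ and 3.78% to 4.48% in Δ/D329A, so the groups were apart. Whether this lower share of strongly marked tiles bears on the members' differences was not tested.

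Six3 had the smallest p of the 10, at 0.211, 0.229 and 0.345 RPM in +/+ and 0.490, 0.523 and 0.553 RPM in Δ/D329A (log2 difference 0.80 ± 0.16 SE, interval 0.41 to 1.19, adjusted p = 0.223). Otp was at 0.244, 0.169 and 0.344 RPM against 0.556, 0.477 and 0.457 RPM (0.79 ± 0.20 SE, adjusted p = 0.228). Nkx2-2 was at 0.243, 0.204 and 0.291 RPM against 0.374, 0.375 and 0.443 RPM (0.53 ± 0.13 SE, adjusted p = 0.223). All these values lie beneath the median of all gene bodies, 0.791 RPM, and beneath the mean input at the same genes.

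Six6 went from 0.152 ± 0.031 to 0.288 ± 0.070 RPM and Rax from 0.168 ± 0.068 to 0.370 ± 0.121 RPM. A pseudocount of 0.5 RPM in place of 0.1 RPM reduced the 5 differences to between 0.27 and 0.43. As a ratio to input they were between 0.28 (Otp) and 0.86 (Six3). At promoters, where the median over all genes was itself shifted by 0.11, Six3 alone had separate groups, as 8.99% of all promoters did in this direction and 2.67% in the other. Its promoter signal was 0, 0.0948 and 0.183 RPM in +/+ and 0.463, 0.197 and 0.262 RPM in Δ/D329A. With limma 0 of 10 passed there, as 0.0231% of all did (edgeR, whose read filter kept 0 of the 10, called 0.0175%).

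H3K4me3 was variable between animals of one genotype, and no member passed limma's test at promoters (0 of 25952 promoters passed, 900 with an unadjusted p under 0.05 and 0 of these members) or over bodies. In +/+ replicate 2 the promoter signal was the lowest of its group at 8 of 10 members, and in Δ/D329A replicate 2 at 6 of 10. These animals set much of the spread described next.

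Sim1 alone had separate groups at the promoter, which 4.22% of all promoters had in this direction and 1.83% in the other. Its promoter was at 14.1, 13.1 and 12.5 RPM in +/+ and 9.78, 11.9 and 12.2 RPM in Δ/D329A (log2 difference −0.24, interval −0.52 to 0.04). Over its body the groups were apart as well, as at 4.5% of gene bodies lower and 2.14% higher. The gap between the promoter groups was small, at 12.5 against 12.2 RPM, and centring on the median of all promoters reduced the difference to −0.03. Sim1 was thus the member whose RNA, promoter H3K4me3 and promoter H3K27me3 all lay lower in every Δ/D329A animal than in any +/+ animal, with RNA from females and ChIP from males by the study's legends.

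The promoter of Nkx2-1 was at 11.6, 7.42 and 8.24 RPM in +/+ and 9.44, 0.907 and 3.65 RPM in Δ/D329A. The mean difference was −1.45 on the log2 scale (interval −3.50 to 0.60), with overlapping groups, and −0.59 without Δ/D329A replicate 2. Over the body of the gene the same animals stood at 14.8, 1.47 and 7.06 RPM, against 10.8 to 18.6 RPM in +/+. Its RNA in Δ/D329A was 1.37 to 1.70 RPKM, in libraries that cannot be matched to these animals.

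Bsx followed the same animals, at 6.13, 1.23 and 6.50 RPM in +/+ and 6.08, 0.513 and 1.03 RPM in Δ/D329A. Its difference of −1.22 (interval −3.91 to 1.46) was −0.52 without Δ/D329A replicate 2. Hmx2 and Hmx3 were likewise lowest in replicate 2 of both genotypes, at 0.798 and 1.50 RPM for Hmx2 and 2.03 and 1.62 RPM for Hmx3. At each of these 3 genes the highest signal was well above the lowest within a genotype. This was not particular to them. Six6 ran from 0.366 to 2.79 RPM in +/+ and from 0.631 to 5.97 RPM in Δ/D329A, and Otp and Six3 varied widely in +/+.

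Six3 had a difference of the opposite sign, at 4.40, 1.96 and 9.82 RPM in +/+ and 8.81, 11.9 and 14.5 RPM in Δ/D329A. The groups overlapped by a single animal, +/+ replicate 3, and the log2 difference was 1.36 (interval −0.11 to 2.82). It was 0.79 without +/+ replicate 2 and 0.85 around the RefSeq start. Six3 thus combined lower H3K27me3, higher H3K36me3 and a higher mean of H3K4me3, while its RNA was 0.452 ± 0.118 and 0.539 ± 0.106 RPKM.

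Otp had 5.09, 1.23 and 8.74 RPM in +/+ and 4.89, 8.52 and 8.39 RPM in Δ/D329A, a difference of 0.86 that fell to 0.08 without +/+ replicate 2. Six6 differed by 0.82 (interval −1.83 to 3.47). Nkx2-2 varied less, at 12.9, 15.4 and 16.9 RPM in +/+ and 10.9, 13.8 and 12.4 RPM in Δ/D329A (−0.28, interval −0.63 to 0.07). Its stretch of tiles at or above 2 RPM in H3K4me3 was 20 kb in each +/+ animal and 17, 5 and 17 kb in Δ/D329A (exact permutation p = 0.1). It was the 1 member with separate groups in this measure, which was not taken at other genes. When the fit was limited to promoters of at least 0.5 RPM, Otp, Nkx2-1, Six3 and Bsx passed (4 of 10, against 277 of all 16482 promoters tested), although their groups overlapped. With edgeR on the nearest tile 0 of 10 were called, against 0.279% of promoters. The plot of differences by readout sets these values beside one another.

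**Figure D5:**
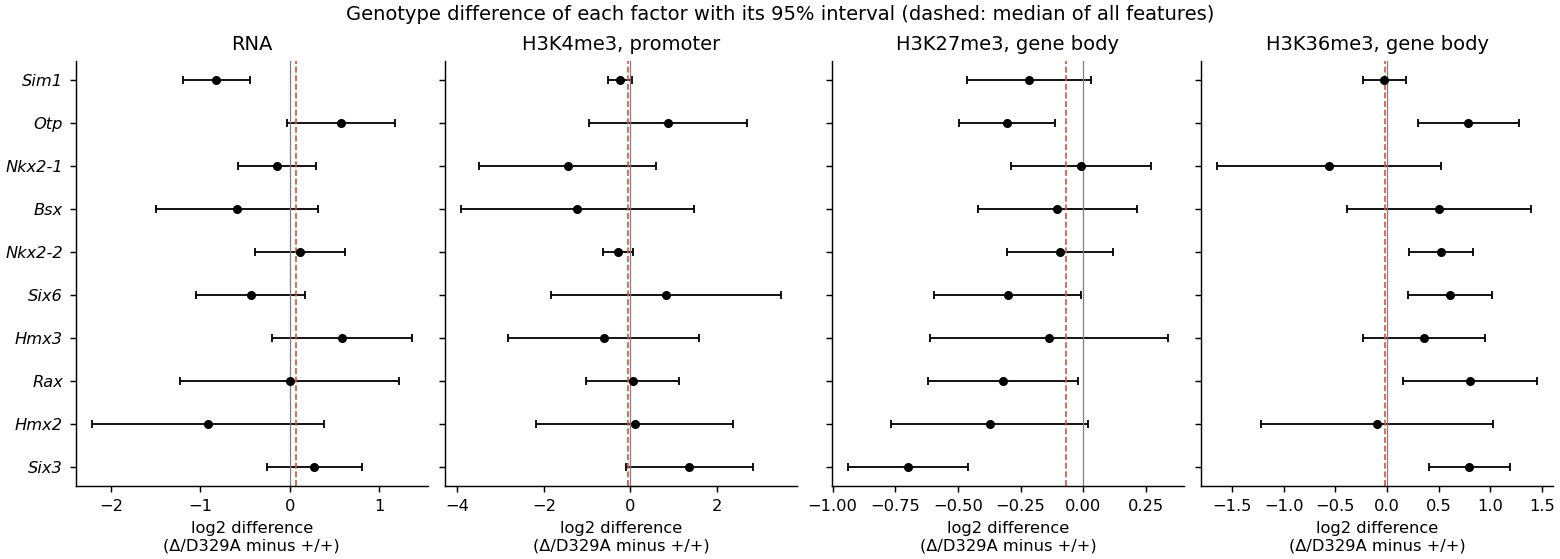
Log2 difference (Δ/D329A minus +/+, horizontal axes) of RNA, promoter H3K4me3, and H3K27me3 and H3K36me3 over gene bodies at the 10 factors; points are differences, bars are 95% intervals from limma, and dashed lines are medians of all features. The Sim1 interval for RNA, −1.198 to −0.45, and the Six3 interval for H3K27me3 over the body, −0.94 to −0.46, lie below 0, and the H3K4me3 intervals are wide.

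Other genes tied to the members' work were read from lists. Of 35 further factors of hypothalamic development 32 were tested in RNA and 0 passed limma's threshold, with a median difference of 0.04. With edgeR 1 passed, Onecut2, a cut-homeodomain factor (0.72, adjusted p = 0.00655). In +/+ 34 of the 35 had H3K27me3 above input, 27 had H3K4me3 and 26 had both, or 74.3%, beside 8 of 10 members. Of 17 products of the neurons that the members specify, such as the hormones and peptides of the paraventricular and arcuate nuclei, 0 passed with limma or edgeR, and the median difference was −0.04. Their mean promoter H3K4me3 was 1.81 to 2.15 RPM in +/+ and 1.36 to 1.66 RPM in Δ/D329A, with separate groups. Such a mean is moved most by the genes with strong signal. The median of their log2 differences in H3K4me3 was −0.11, beside −0.07 over all promoters, of which 69.9% were negative. The separation was not tested.

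Markers of other cells and neighbouring regions were read for what the dissections may have held. With limma 0 markers passed in any list. Cortical projection neuron markers, 4 of 6 of which were tested, had a median difference of 0.81 and summed to 1.71 to 2.71 RPKM in +/+ and 2.21 to 3.68 RPKM in Δ/D329A. Signs within this list were mixed, with −0.40 at Neurod6, and the median depends on the filter. The filter left out Neurod2, lower in every Δ/D329A library (mean 0.184 RPKM in +/+ and 0.048 RPKM in Δ/D329A), and Emx1, which was higher in every one (0.028 and 0.069 RPKM). Thalamic markers had a median of 0.63 and summed to 37.7 to 61.0 RPKM and 44.3 to 72.9 RPKM. The largest part of that sum was Slc17a6 (mean 36.9 RPKM in +/+ and 36.1 RPKM in Δ/D329A), which differed by −0.01. The other thalamic markers had differences from 0.52 at Lef1 to 1.79 at Gbx2. Of the 5 striatal markers in the table Ppp1r1b passed with edgeR (0.97, adjusted p = 0.00574), and the 5 summed to 7.26 to 12.6 RPKM and 9.27 to 10.4 RPKM. Anterior pituitary markers summed to 13.6 to 35.2 RPKM and 6.92 to 22.5 RPKM. The sums overlapped between genotypes. The positive cortical and thalamic medians come from the RNA libraries in which Sim1 was lower, and their part in that difference was not tested.

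Glial lists bear on Rax and Nkx2-2. The 10 tanycyte markers, of which Rax is 1, had a median difference of −0.24 and summed to 12.3 to 21.7 RPKM in +/+ and 10.2 to 15.8 RPKM in Δ/D329A. Oligodendrocyte precursor markers had a median of −0.17, and Pdgfra, the receptor that defines these cells, passed with edgeR (−0.57, adjusted p = 0.00739). Oligodendrocyte markers summed to 289 to 448 RPKM and 201 to 376 RPKM. Ependymal, astrocyte, microglia and endothelial lists had medians between 0.15 and 0.26, with overlapping sums and 0 markers passing with either tool. No list had a gene at 0 in all libraries.

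Genes that overlap the members were read for shared signal, because it is not stated whether the counting used strand, although a figure legend of the study calls the library kit strand-specific. Nkx2-2as and 6430503K07Rik overlap Nkx2-2, Six3os1 lies at Six3, 4930447C04Rik at Six6 and Fgfr2 at Hmx2 and Hmx3. Six3os1 was at 0.598 ± 0.125 RPKM in +/+ and 0.686 ± 0.089 RPKM in Δ/D329A (log2 difference 0.21, adjusted p = 0.756). None of the 5 passed limma's threshold (adjusted p from 0.750 to 0.953), and whether reads of an overlapping pair were told apart is not known.

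The genes whose RNA most resembled the mean pattern of the 10 factors over the 9 libraries, each scaled to mean 0 and SD 1, were BC018242, C130039O16Rik and Mboat7, with root mean square distances of 0.447, 0.449 and 0.463 among 11501 genes of at least 1 RPKM. The pattern they follow is high in +/+ replicate 1 (1.18) and low in +/+ replicate 4 (−0.86).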

How the data were processed

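RNA-seq and ChIP-seq of adult mouse hypothalamus were used, grouped by the genotype in the sample titles. For RNA, the authors trimmed reads, mapped them to GRCm38, merged them over exons in SeqMonk and deposited log2 RPKM, which includes a length correction. For ChIP, the deposited signal is the authors' read number in tiles of 2000 bp every 1000 bp, scaled to the total (RPM here) with no input subtracted. The submitters' processing notes name Trim Galore 0.4.3, HISAT2 2.0.5 and Bowtie2 2.3.2, without roles. RNA reads were recovered to within 0.02 of a whole number for 99.99% of genes.

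The members and lists were chosen with earlier results of these data known. All 10 members are named in each readout, and list genes only where called or where needed to read the sum or median of a list. limma 3.58.1 was fitted on all features with a variance trend, on log2 RPKM (genes of at least 0.1 RPKM in 4 libraries, mitochondrial genes left out) or log2(RPM + 0.1), with Benjamini-Hochberg adjustment and thresholds of 0.01 (RNA) and 0.05 (ChIP). Fold changes in ChIP are on the log2(RPM + 0.1) scale, which understates those of low signals. edgeR 4.0.16 and DESeq2 1.42.0 ran on recovered reads as alternatives, and the fits were tested on simulated data, where limma called fewer of the smaller changes than edgeR, so that 0 calls with limma do not show equal levels. Permutation tests were exact and two-sided. Over the 16 pairs of libraries within a group, none were alike within sampling noise (chi-square per gene from 3.99 to 25.6). Same-numbered samples did not deviate together, so replicate numbers were not taken as pairs. Bisulphite libraries were not used here. Promoter sequences are from RefSeq (GRCm38.p6). Versions of R 4.3.3 and Python 3.11.15 were used. The result of a single marker gene is not reported here.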

Additional observations from a re-analysis of the deposited data

Results flagged for a closer look

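The RNA levels of the 10 members in the 2 genotypes were screened with Dixon's test, 20 groups in all, of which chance would single out about 1 in 20. In Δ/D329A, Nkx2-1 in replicate 2 (0.45 log2 RPKM) lay below the other 3 libraries, which were close together (0.73 to 0.77). It was still inside the +/+ range of 0.36 to 1.34 log2 RPKM. Hmx2 in Δ/D329A replicate 4 (−4.21 log2 RPKM, from 1 read) lay far below the others. Without Δ/D329A replicate 4 the Hmx2 difference was −0.17, against −0.91 with it, and without Δ/D329A replicate 2 the Nkx2-1 difference was −0.06, against −0.14.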

How the results depend on the processing

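Member calls moved as follows. RNA went from 0 to 1 (Sim1) with edgeR and with DESeq2, promoter H3K4me3 from 0 to 4 when limited to 0.5 RPM or more, and promoter H3K27me3 from 0 to 1 (Otp) with edgeR. H3K4me3 above input went from 8 to 3 with edgeR (12205 of 24861 promoters tested), whose scaling sets as many promoters above as below input. On leaving out a +/+ animal it went to between 4 and 9 (14710 to 14737 of 25952 promoters). In that edgeR fit the differences from input became −0.16 at Otp, −1.82 at Six6, −0.42 at Hmx2, −0.23 at Hmx3 and −0.32 at Bsx. The replicate block left 0 members called for each genotype comparison and 10 above input for H3K27me3, 7 for H3K4me3 (without Hmx2) and 0 for H3K36me3. Of all 25952 promoters it called 5119, 14865 and 946 above input for these marks, respectively. The numbers are not known to pair the samples (correlation of same-numbered deviations from −0.29 to 0.31).

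Over all genes, RNA calls numbered 19, and 11 at 0.5 RPKM or more, 34 with median centring, 76 with edgeR, 249 with DESeq2 and 1 to 19 on leaving out a library (1 without Δ/D329A replicate 4). Calls for H3K4me3 at promoters numbered 0, but 28 with median centring, 277 at 0.5 RPM or more and 45 with edgeR. For H3K27me3 they numbered 0, but 54, 222 and 216 under those settings and 4 with a window of 2500 bp on each side. For H3K27me3 over bodies they numbered 2, against 0 or 1 under every alternative, and for promoter H3K36me3 6, against 0 to 19. H3K36me3 above input was called at 959 promoters with limma and 1851 with edgeR. Median centring turned the share of promoters with lower H3K4me3 from 69.9% to 19.1%, and that with lower H3K36me3 from 37.7% to 61.6%.

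Beside those differences from input, signs turned at genotype differences that limma did not call. With a window of 2500 bp on each side, H3K4me3 became −0.21 at Rax and −0.17 at Hmx2, and H3K27me3 −0.12 at the Rax promoter. As a ratio to input, H3K4me3 over Hmx2 became 0.013, promoter H3K27me3 −0.12 at Nkx2-2 and 0.17 at Hmx3, promoter H3K36me3 −0.15 at Otp and −0.16 at Sim1, and H3K36me3 over Hmx2 0.21. With edgeR, promoter H3K27me3 became −0.027 at Nkx2-2 and −0.053 at Rax, and with 10000 bp on each side −0.13 at Rax. Around the RefSeq start, chosen after seeing the data, Nkx2-2 had −0.16 for H3K27me3 and −0.21 for H3K36me3. Median centring gave 0.035 for H3K27me3 over Nkx2-1 and −0.14 for promoter H3K36me3 at Sim1, and a pseudocount of 0.5 RPM gave 0.0052 for that of Hmx2. With the sets of mitochondrial coverage as a block, promoter H3K27me3 at Rax became −0.025, promoter H3K36me3 at Hmx2 0.20 and H3K36me3 over Sim1 0.0094.

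On leaving out a library or animal, RNA of Rax ranged from −0.49 to 0.29. Promoter H3K4me3 ranged from −0.23 to 0.34 at Rax and −0.79 to 0.63 at Hmx2, and over bodies from −0.30 to 0.081 at Rax, −1.12 to 0.24 at Hmx2 and −1.48 to 0.13 at Hmx3. H3K27me3 ranged from −0.019 to 0.14 at the Nkx2-2 promoter, −0.031 to 0.11 at the Rax promoter, −0.058 to 0.073 over Nkx2-1 and −0.30 to 0.067 over Hmx3. Promoter H3K36me3 ranged from −0.0050 to 0.53 at Otp, −0.12 to 0.37 at Sim1 and −0.22 to 0.33 at Hmx2, and over bodies from −0.091 to 0.026 at Sim1 and −0.44 to 0.37 at Hmx2. RNA of Rax, Hmx2, Hmx3 and Bsx, and H3K36me3 at all 10 genes, are limited by depth.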
